A study of Homo sapiens with 12 samples.

Results

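Splicing factor genes of 5 families were described across the 4 groups of a double knockdown experiment in IMR32 cells. The genes are all rows of the deposited expression table whose symbol starts with SRSF, HNRNP, SNRP, SF3A or SF3B. Of 64 such rows, 5 pseudogenes were left out (HNRNPA1P10, HNRNPA1P33, HNRNPA3P1, HNRNPKP3 and SNRPD2P2), and no row was an antisense transcript. This leaves 59 of the 27514 listed genes, with 12 SRSF, 26 HNRNP, 12 SNRP, 3 SF3A and 6 SF3B genes. A total of 55 passed the filter for testing, a mean of at least 1 CPM (the reads of a gene scaled to the depth of its library) over all 12 samples. The other 4, HNRNPCL1, HNRNPCL2, HNRNPCL3 and HNRNPCL4, are close copies of HNRNPC that had at most 0.116 CPM in any sample, and they are not described further.

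IMR32 is an established human neuroblastoma line with amplified MYCN, the gene of a transcription factor of the MYC family. HAND2 is a basic helix-loop-helix transcription factor of the sympathetic lineage, and the design asks which genes depend on MYCN, on HAND2, or on both. Cells of this single line were electroporated with control siRNA (siCtrl), siRNA against MYCN (siMYCN), siRNA against HAND2 (siHAND2) or siRNAs against MYCN and HAND2 together (the combined knockdown), with 3 samples per group. The titles label the siRNAs SiMYCN_2, SiHAND2_3 and SiM2+SiH2_3. No other label for either target is among the samples, so effects of an siRNA outside its target were not tested. All groups went through electroporation and were grown for 72 h in serum-containing medium before RNA was sequenced, and no untransfected cells are among the samples. Nothing in the labels says whether the 3 samples of a group came from separate cultures, so the p-values measure the spread between these samples, which may be technical.

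Depth estimated from the steps of low CPM values was 31.6 to 64.2 M reads per sample, of which 44.3 to 65.8% fell in listed genes. That share was 58.4, 51.4 and 44.3% in replicates 1, 2 and 3 of the combined knockdown and at least 56.8% in the other groups, and it lowers the deposited CPM of listed genes together. The median log2 change of all 12680 tested genes against siCtrl was 0.0056 for siMYCN, −0.14 for siHAND2 and −0.28 for both siRNAs together. Dividing each sample by its median ratio to all samples (rescaling) brought these to 0.014, 0.012 and 0.045, so results are given as deposited and rescaled. MYCN fell from 1009 CPM in siCtrl to 682 after siMYCN and 482 after both siRNAs, and HAND2 fell from 239 CPM to 62.3 after siHAND2 and 73.5 after both. Both knockdowns were therefore partial. HAND2 was higher in siMYCN, at 326 CPM, and MYCN stood at 849 CPM in siHAND2, which was not called different from siCtrl (−0.25, limma adjusted p 0.086, −0.09 rescaled). Of 12 sympathoadrenal markers 11 had a mean of at least 1 CPM in each group (all but TH in siCtrl and siMYCN, and all but DBH in siHAND2 and the combined knockdown), whereas leukocyte, Schwann cell and endothelial marker sums stayed at 3.63 CPM or less. Fibroblast and mesenchyme markers summed to 210 to 221 CPM in siCtrl, 254 to 268 CPM in siMYCN, 112 to 127 CPM in siHAND2 and 78.5 to 113 CPM with both siRNAs, mostly PDGFRA and TWIST1, with PRRX1 at the constant added to every value in all groups, and their part in the results was not tested. In bulk samples, fewer cells of a type and less RNA per cell cannot be told apart.

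Introns are removed from pre-mRNA by the spliceosome, which is built from small nuclear ribonucleoproteins (snRNPs). The SNRP genes encode the ring of Sm proteins around each snRNA and proteins of the U1 and U2 particles, and the SF3A and SF3B genes encode complexes with which the U2 particle holds the branch point. SRSF proteins mostly bind exons and favour their inclusion, and HNRNP proteins coat nascent RNA and often act in the opposite sense. MYC proteins are known to raise transcription of many genes of RNA processing, and MYC-driven cells are known to depend on a high splicing capacity.

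As deposited, most of these genes were called lower in the combined knockdown, fewer in siHAND2 and a minority in siMYCN. After rescaling, the counts in siMYCN and siHAND2 were close to each other. In siMYCN, 11 of 55 were called lower and none higher (limma, Benjamini-Hochberg adjusted p under 0.05 over all tested genes), where 33.7% of all tested genes were called, 16.3% lower and 17.4% higher. In siHAND2, 30 were lower and none higher, beside 42.7% of all genes called, 30.4% lower and 12.3% higher. In the combined knockdown, 48 were lower and 1, SNRPN, was higher, beside 67.4% of all genes called, 50.1% lower and 17.4% higher. The share of members called lower was thus close to that of all genes only in siMYCN as deposited. After rescaling, 25 were lower and 2 higher in siMYCN (47.9% of all genes called, 22.5% lower and 25.4% higher). They were 27 and 4 in siHAND2 (50.8%, 24.9% and 25.9%), and 40 and 3 in the combined knockdown (70.7%, 33% and 37.7%). The members' median log2 change was −0.17, −0.32 and −0.76 in the 3 knockdowns as deposited and −0.17, −0.16 and −0.40 rescaled. The siMYCN count moved with the fit. With the replicate number as a block it was 18, and with only the siMYCN and siCtrl samples in the fit it was 36. It was 23 and 24 without replicate 1 and replicate 3 of the combined knockdown. With only the siHAND2 and siCtrl samples in the fit, 8 members were called in siHAND2 beyond the 30. The share of all genes called under these fits is not given here, so these counts cannot be set against it. The plot of every tested gene shows both scales side by side.

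**Figure D1:**
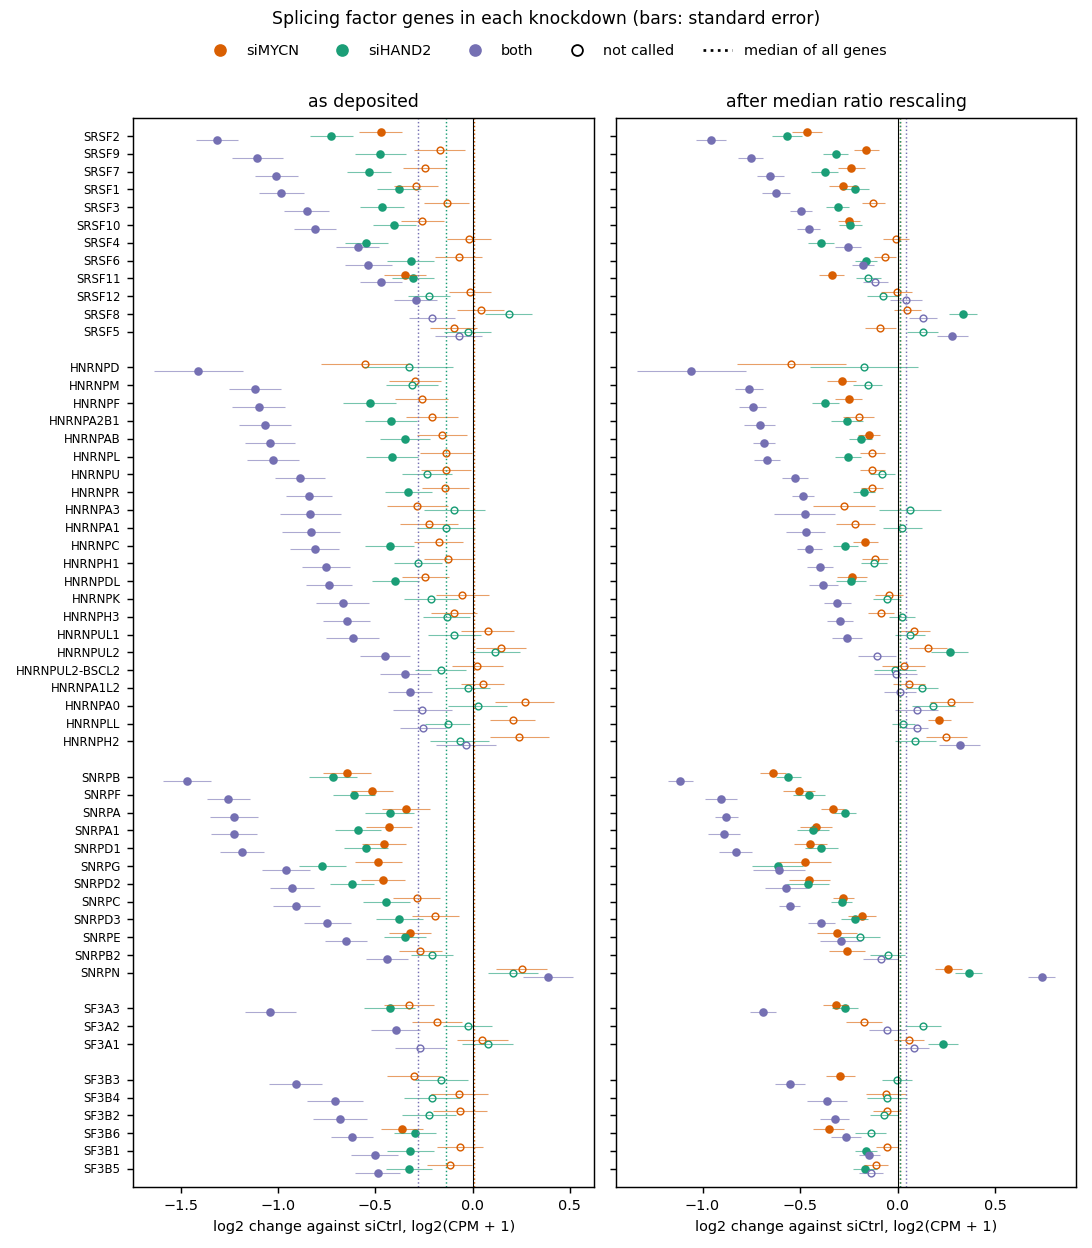
Log2 change against siCtrl of the 55 tested splicing factor genes on the log2(CPM + 1) scale, as deposited (left) and after median ratio rescaling (right), with families in blocks and genes ordered by the combined knockdown. Points are fitted changes with their standard error, open where not called, with dotted lines at the medians of all 12680 genes, and SNRPN is the 1 gene called higher against siCtrl as deposited (0.39 in the combined knockdown).

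The members took up 1.67% ± 0.029 (SD, n = 3) of the reads in listed genes in siCtrl, 1.53% ± 0.025 after siMYCN, 1.47% ± 0.034 after siHAND2 and 1.21% ± 0.066 after both. This share does not depend on the reads outside listed genes. The highest combined knockdown sample, at 1.29%, lay below the lowest sample of any other group, at 1.43%. HNRNP genes made up most of it, falling from 0.964% to 0.703% of listed reads, against 0.194% to 0.130% for SNRP and 0.339% to 0.234% for SRSF genes. As deposited, 48 members had all combined knockdown samples below all siCtrl samples and 0 had them all above, where 48.3% and 16.7% of all genes did. Rescaled, the counts were 38 and 3, beside 32.9% and 37.4% of all genes.

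Promoter sequence is shown for 4 genes picked by their change in the combined knockdown, which do not stand for the members as a whole. They are SNRPB, with the largest fall of all 55, HNRNPD and HNRNPM, with the largest falls among HNRNP genes, and HNRNPH2, with the smallest change among HNRNP genes. Each line gives the 250 bases before the RefSeq start site (GRCh38.p14), 5′ to 3′ on the gene's strand, with CACGTG in capitals. CACGTG reads the same on both strands and is the best known of the E-box sequences bound by MYC proteins.
SNRPB, chr20:2470790-2471039, minus strand: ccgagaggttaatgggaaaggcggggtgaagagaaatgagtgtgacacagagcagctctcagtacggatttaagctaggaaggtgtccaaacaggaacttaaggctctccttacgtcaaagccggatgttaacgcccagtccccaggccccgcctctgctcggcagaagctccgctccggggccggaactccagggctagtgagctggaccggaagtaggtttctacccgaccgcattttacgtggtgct
HNRNPD, chr4:82373992-82374241, minus strand: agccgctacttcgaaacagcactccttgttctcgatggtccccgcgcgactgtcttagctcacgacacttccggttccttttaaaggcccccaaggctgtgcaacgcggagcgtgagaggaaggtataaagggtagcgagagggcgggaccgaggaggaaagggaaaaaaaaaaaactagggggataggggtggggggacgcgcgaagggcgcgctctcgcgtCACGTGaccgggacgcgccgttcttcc
HNRNPM, chr19:8444725-8444974, plus strand: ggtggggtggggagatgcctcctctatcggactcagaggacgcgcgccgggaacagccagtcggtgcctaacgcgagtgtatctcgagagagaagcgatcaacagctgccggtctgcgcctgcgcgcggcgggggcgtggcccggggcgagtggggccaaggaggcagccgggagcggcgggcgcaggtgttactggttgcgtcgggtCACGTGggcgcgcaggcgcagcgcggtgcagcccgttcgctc
HNRNPH2, chrX:101407972-101408221, plus strand: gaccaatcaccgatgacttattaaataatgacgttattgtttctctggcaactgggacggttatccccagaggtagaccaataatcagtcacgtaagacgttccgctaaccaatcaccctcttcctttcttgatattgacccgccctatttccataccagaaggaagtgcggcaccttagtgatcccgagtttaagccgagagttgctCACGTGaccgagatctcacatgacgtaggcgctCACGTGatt
CACGTG stands 1 time in the HNRNPD and HNRNPM stretches, 2 times in that of HNRNPH2, and not in that of SNRPB. Over windows from 250 bases before to 50 after the start site, available for 54 of the 59 members (not for SF3B3, SRSF2, HNRNPCL3, HNRNPA1 and SNRPD1), 8 genes or 14.8% held CACGTG, against 8.77% of all genes with a window and 13.0% of tested genes. Of the 8, 7 were HNRNP genes (HNRNPA3, HNRNPD, HNRNPDL, HNRNPH2, HNRNPH3, HNRNPM and HNRNPUL1, of 24 with a window) and the other was SF3B1. None of the 11 SRSF and 11 SNRP genes with a window had it. The 8 genes had a median log2 change of −0.69 in the combined knockdown, ranging from −1.41 to −0.03, and the 43 tested genes without it had a median of −0.75. The E-box CATCTG, searched with its complement CAGATG as a sequence known to bind basic helix-loop-helix factors, was found in 6 of the 54 genes or 11.1%, against 17.5% of all genes and 13.2% of tested genes. Those 6 were SRSF11, HNRNPDL, SNRPD2, SNRPG, SNRPN and SF3A3. These matches describe the letters in the windows and say nothing of binding.

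SNRP genes had the lowest median of the 5 families in each knockdown, a difference that was not tested. In siMYCN, 8 of 12 were called lower, with a family median of −0.39 (11 of 12 and −0.38 rescaled). In siHAND2, 10 were lower with a median of −0.50 (9 and −0.34 rescaled), and in the combined knockdown 11 were lower with a median of −0.95 (10 and −0.59 rescaled). Of all genes, 16.3%, 30.4% and 50.1% were lower in these knockdowns as deposited and 22.5%, 24.9% and 33% rescaled. The family's per-sample medians, rescaled, were −0.36 to −0.39 in siMYCN, −0.30 to −0.42 in siHAND2 and −0.49 to −0.81 in the combined knockdown, all below the lowest siCtrl sample at −0.061.

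SNRPB (chromosome 20, 2442281 to 2451499, hg19) encodes the Sm proteins B and B′. It had 258, 225 and 246 CPM in the siCtrl samples, 161, 151 and 151 in siMYCN, 142, 156 and 143 in siHAND2, and 107, 82.3 and 74.6 in the combined knockdown. Each single knockdown lay wholly below siCtrl, at 63.6% and 60.5% of its mean, and the combined knockdown lay wholly below both at 36.2%. The log2 changes were −0.65 (SE 0.12, limma adjusted p 2.2e-04), −0.72 (limma adjusted p 4.0e-05) and −1.47 (limma adjusted p 1.0e-10), or −0.64, −0.56 and −1.11 rescaled. The combined change departed from the sum of both single changes (the interaction) by −0.10 (SE 0.17, limma adjusted p 0.73). SNORD119 lies within SNRPB on the same strand.

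Of the other Sm core genes, SNRPF, SNRPD1, SNRPG, SNRPD2 and SNRPE were each called lower in all 3 knockdowns as deposited. SNRPF fell from 72.3, 72.0 and 77.9 CPM in siCtrl to 51.2, 52.3 and 50.8 in siMYCN, 43.1, 51.3 and 50.5 in siHAND2 and 33.3, 29.3 and 28.8 in the combined knockdown. It thus lost more with both siRNAs than with either, and its combined change of −1.26 was −0.90 rescaled. SNRPG went from 78.5, 68.6 and 75.2 CPM to 60.02, 46.9 and 51.6 in siMYCN, 42.9, 42.9 and 42.9 in siHAND2 and 40.2, 31.1 and 42.2 in the combined knockdown. Unlike SNRPB, SNRPG in the combined knockdown was not called different from siHAND2 alone (−0.19, limma adjusted p 0.23, and 0.01 rescaled), although its samples all lay below the 3 nearly equal siHAND2 samples. SNRPD3 fell in siHAND2 (−0.38) and the combined knockdown (−0.75) and stood at 87.4% of siCtrl in siMYCN, where it was called lower only after rescaling. The fall of SNRPE in siHAND2 was not called after rescaling (−0.19, limma adjusted p 0.14), and those of SNRPD3 are uncertain because GUCD1 overlaps it on the other strand.

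The particle-specific SNRP genes differed among themselves. SNRPA, of the U1 particle, had 71.6, 68.7 and 74.8 CPM in siCtrl, 56.7, 57.1 and 55.0 after siMYCN, 54.0, 55.5 and 49.8 after siHAND2 and 36.8, 30.5 and 24.0 after both, a combined change of −1.23 (SE 0.12, limma adjusted p 3.1e-09, −0.88 rescaled). SNRPA1, of the U2 particle, changed by −1.23 (−0.89 rescaled), and SNRPC, of the U1 particle, by −0.91 (−0.55 rescaled). SNRPB2, the U2 protein related in sequence to SNRPA, moved less: it had 87.7, 78.5 and 92.6 CPM in siCtrl and 68.2, 58.1 and 63.5 in the combined knockdown. Its change of −0.44 (limma adjusted p 9.7e-04) was −0.09 rescaled and then not called. Within a sample the ratio of SNRPB2 to SNRPA was 1.20 ± 0.052 (SD, n = 3) in siCtrl, 1.27 ± 0.039 after siMYCN, 1.40 ± 0.088 after siHAND2 and 2.13 ± 0.44 after both, where replicate 3 alone reached 2.64.

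SNRPN was the exception. It encodes SmN, a near relative of the SNRPB products made mainly in neurons, from an imprinted locus. It had 36.5, 32.8 and 37.8 CPM in siCtrl, 45.0, 42.6 and 40.3 after siMYCN, 40.2, 43.4 and 40.4 after siHAND2 and 58.8, 47.2 and 37.2 after both. Both single knockdowns lay wholly above siCtrl, and in the combined knockdown replicates 1 and 2 were above and replicate 3 was within the siCtrl range. The rise was called in the combined knockdown (0.39, SE 0.13, limma adjusted p 0.010), but not in siMYCN (0.25, limma adjusted p 0.14) or siHAND2 (0.21, limma adjusted p 0.20). Without replicate 1 of the combined knockdown the change was 0.23 (limma adjusted p 0.056), and without replicate 2 of siCtrl it was 0.33 (limma adjusted p 0.059). Rescaled, SNRPN was called higher in all 3 knockdowns, by 0.26, 0.36 and 0.74 (limma adjusted p 0.0073, 6.4e-04 and 3.0e-07), with all samples of each above all siCtrl samples. SNRPN shares its strand with SNURF and SNHG14, and the ratio of SNRPN to SNURF stayed between 1.07 and 1.18 in all 12 samples, so the level of SNRPN alone is uncertain where these genes share reads.

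**Figure D2:**
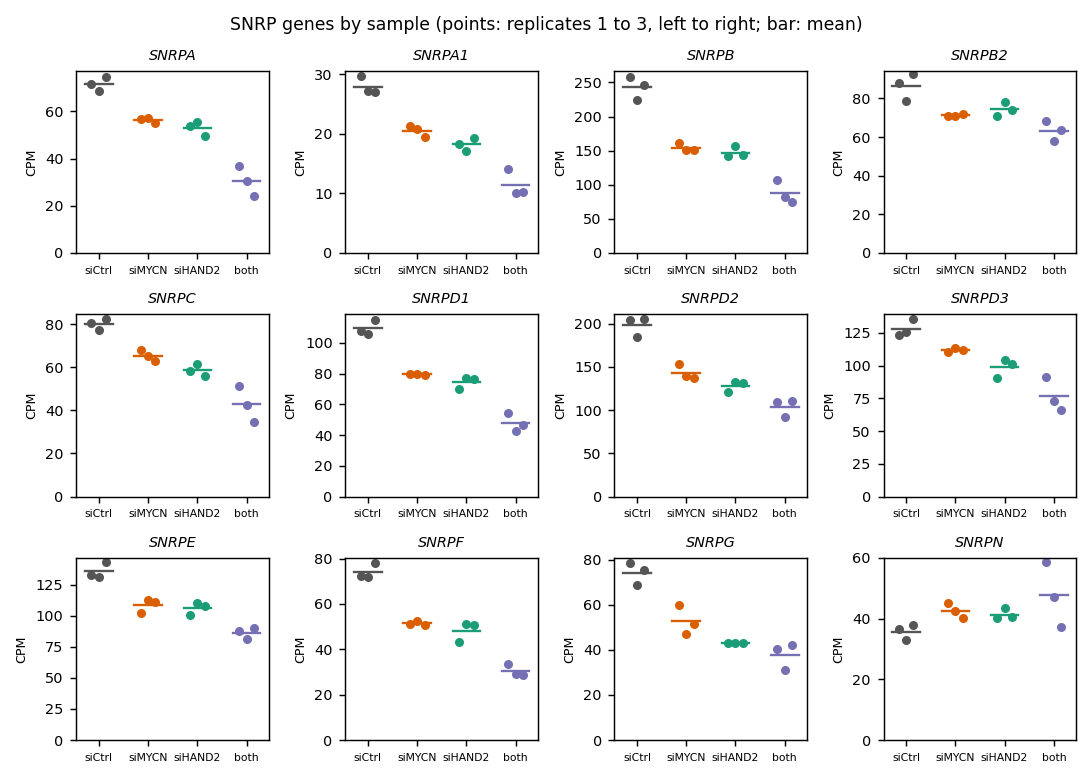
CPM of the 12 SNRP genes in each of the 12 samples, with points for replicates 1 to 3 from left to right, bars for group means and axes that start at 0. SNRPB drops from a mean of 243 CPM in siCtrl to 87.9 in the combined knockdown (labelled both), and SNRPN alone has its highest mean there, 47.7 against 35.7 CPM.

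The balance of the paralogs SNRPN and SNRPB does not depend on scaling, since it is a ratio within a sample. It was 0.147 ± 0.0062 (SD, n = 3) in siCtrl, 0.276 ± 0.0087 after siMYCN, 0.281 ± 0.0029 after siHAND2 and 0.541 ± 0.038 after both. These are 1.88, 1.91 and 3.68 times the siCtrl ratio, and no sample of a knockdown overlapped siCtrl (two-sided exact permutation p = 0.1 for each, the smallest that 3 against 3 samples allow). The single knockdowns, at 0.266 to 0.283, overlapped each other, and the combined knockdown, at 0.498 to 0.573, lay above both. All pairs for which ratios are given were chosen after their values were seen. Their p-values therefore describe the separation of the samples and are not tests of a shift. No share of other gene pairs without overlap is given beside them.

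SF3A and SF3B genes changed unevenly, with combined medians of −0.40 and −0.65 (−0.05 and −0.29 rescaled). SF3A3 was called lower after siHAND2 (−0.43) and after both siRNAs (−1.04, limma adjusted p 1.3e-07, −0.69 rescaled), with 77.7, 71.8 and 71.7 CPM in siCtrl, 59.9, 58.1 and 57.5 after siMYCN, 53.9, 56.9 and 53.0 after siHAND2 and 45.5, 34.9 and 27.7 after both. The samples of every knockdown lay below siCtrl, although the siMYCN change of −0.33 was called only after rescaling or with the block (limma adjusted p 0.054 as deposited, 0.0011 rescaled and 0.019 with the block). SF3A1 was not called in any knockdown as deposited, with changes of 0.05, 0.08 and −0.27, and was called higher in siHAND2 after rescaling (0.23). SF3A2 fell in the combined knockdown as deposited (−0.40) but stood at −0.05 rescaled. SF3A1, SF3A2 and SF3A3, which form 1 complex, thus had combined changes of 0.08, −0.05 and −0.69 after rescaling.

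All 6 SF3B genes were called lower in the combined knockdown, with changes from −0.49 to −0.91 (5 of them after rescaling, all except SF3B5), beside 50.1% of all genes (33% rescaled). SF3B3, a scaffold subunit, had 202, 201 and 188 CPM in siCtrl, 162, 166 and 149 after siMYCN, 197, 177 and 155 after siHAND2 and 126, 113 and 79.6 after both, so siMYCN was lower while siHAND2 overlapped siCtrl. Its siMYCN change of −0.30 was not called as deposited (limma adjusted p 0.091) and was called after rescaling (limma adjusted p 0.0053) and with the block (limma adjusted p 0.028). SF3B6, a subunit that contacts the branch point, was the 1 SF3B gene called lower in siMYCN as deposited (−0.36, limma adjusted p 0.011), and it also fell in siHAND2 (−0.30, −0.14 and not called rescaled). SF3B1, the largest subunit and the one most often mutated in blood cancers, had 421, 419 and 418 CPM in siCtrl, 396, 411 and 396 after siMYCN, 329, 344 and 334 after siHAND2 and 358, 285 and 253 after both. It fell in siHAND2 (−0.32) and in the combined knockdown (−0.50), and the combined change shrank to −0.14 rescaled.

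As deposited, 9 of 12 SRSF genes were called lower in siHAND2 and 2 in siMYCN, with medians of −0.39 and −0.15. Rescaled, the counts were 8 and 6 and the medians −0.23 and −0.14. In the combined knockdown 10 were lower with a median of −0.70 (8 lower, 1 higher and −0.35 rescaled). Of all genes, 16.3% were lower in siMYCN, 30.4% in siHAND2 and 50.1% with both siRNAs, or 22.5%, 24.9% and 33% rescaled. Between the single knockdowns directly, 4 of the 55 members were called, all higher in siMYCN than in siHAND2, beside 35% of all genes called, 26.1% higher and 8.98% lower, and 3 of the 4 were SRSF genes (SRSF3, SRSF4 and SRSF7, with HNRNPLL the other). With the block this count was 6. Rescaled, SRSF3, SRSF4 and HNRNPLL remained higher in siMYCN and 6 members were lower there (SRSF5, SRSF8, SRSF11, SF3A2, SF3B3 and SF3B6), beside 44.5% of all genes called, 22.4% higher and 22.2% lower. The deposited count rested on single samples, with 1 or 2 genes called when any siMYCN or siHAND2 sample was left out. It was 14 without replicate 1 or replicate 3 of the combined knockdown, and 25 with only the 2 groups in the fit. Shares of all genes called under those fits are not given here.

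SRSF2, which promotes exon inclusion and contacts both ends of introns, had the largest SRSF fall. It had 316, 312 and 333 CPM in siCtrl, 226, 228 and 238 after siMYCN, 187, 193 and 199 after siHAND2 and 143, 119 and 124 after both. The groups formed 4 steps without overlap, at 71.9%, 60.2% and 40.1% of siCtrl, with changes of −0.47, −0.73 and −1.31 (limma adjusted p 0.0016, 7.6e-06 and 9.9e-11, and −0.46, −0.57 and −0.96 rescaled). The step between the single knockdowns was not called (0.25, limma adjusted p 0.075). MFSD11 overlaps SRSF2 on the other strand and MIR636 on the same strand, and whether counting used strand is not given in the sources used here, so its level is uncertain. SRSF9, SRSF7 and SRSF1 followed in the combined knockdown with −1.11, −1.01 and −0.98 (−0.75, −0.65 and −0.62 rescaled). SRSF1, the founding member of the family, had 586, 654 and 639 CPM in siCtrl and 350, 315 and 286 in the combined knockdown. SRSF3, SRSF10 and SRSF6 also fell in siHAND2 and the combined knockdown, with changes of −0.85, −0.81 and −0.54 in the latter.

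SRSF4 separated the 2 single knockdowns. It had 21.0, 21.8 and 20.5 CPM in siCtrl, 21.1, 20.7 and 20.6 after siMYCN, 13.2, 14.6 and 14.6 after siHAND2 and 16.1, 13.0 and 12.1 after both. The siMYCN samples lay on siCtrl and those of the other groups lay below, with siHAND2 and the combined knockdown overlapping. The change was −0.02 in siMYCN (SE 0.11, limma adjusted p 0.92), −0.55 after siHAND2 (limma adjusted p 2.9e-04) and −0.59 after both siRNAs (limma adjusted p 4.5e-05). The direct difference of siMYCN over siHAND2 was 0.53 (limma adjusted p 5.7e-04) and 0.39 rescaled (limma adjusted p 3.2e-04), and the combined knockdown did not differ detectably from siHAND2 (−0.04, limma adjusted p 0.78, 0.14 rescaled).

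SRSF11, SRSF5, SRSF8 and SRSF12 had the smallest falls of the SRSF genes in the combined knockdown as deposited. No gap set them apart, with SRSF11 at 72.1% of siCtrl and SRSF6 at 69.4%. SRSF11 had 91.5, 91.3 and 88.6 CPM in siCtrl, 71.1, 69.3 and 72.3 after siMYCN, 70.0, 72.7 and 76.1 after siHAND2 and 72.3, 63.5 and 59.9 after both. It fell in each single knockdown (−0.35 and −0.31), and against either of them the combined knockdown (−0.47 from siCtrl) was not called as deposited. Rescaled, its interaction was called positive (0.37, limma adjusted p 0.025, against 0.18 and limma adjusted p 0.46 as deposited). SRSF5 was not called as deposited in any knockdown, with 40.3, 40.7 and 41.3 CPM in siCtrl and 47.1, 36.0 and 34.2 in the combined knockdown, a change of −0.07 that turned to 0.28 and a call after rescaling (limma adjusted p 0.0061). SRSF8 stood at 114% of siCtrl in siHAND2 with no overlap of samples, called higher only after rescaling (0.34, limma adjusted p 0.0012, against 0.19 and limma adjusted p 0.22). SRSF12 fell in the combined knockdown as deposited (−0.29) and stood at 0.04 rescaled. The within-sample ratio of SRSF8 to SRSF2, its close relative, was 0.0602 in siCtrl, 0.0861 after siMYCN, 0.114 after siHAND2 and 0.130 after both, with every knockdown sample above every siCtrl sample (two-sided exact permutation p = 0.1 for each).

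HNRNP genes mostly fell in the combined knockdown. Of 22 tested, 0 were called in siMYCN (median −0.14), 7 were lower in siHAND2 (median −0.23) and 19 were lower in the combined knockdown (median −0.78), where 16.3%, 30.4% and 50.1% of all genes were lower. Rescaled, 5 were lower and 1 higher in siMYCN, 7 and 1 in siHAND2, and 16 and 1 in the combined knockdown, with medians of −0.13, −0.07 and −0.42, where 22.5%, 24.9% and 33% of all genes were lower. The counts of lower genes in the single knockdowns after rescaling, and in siHAND2 as deposited, are thus near the share of all genes. Of all genes, 17.4%, 12.3% and 17.4% were higher in siMYCN, siHAND2 and the combined knockdown as deposited, and 25.4%, 25.9% and 37.7% rescaled. The block brought the siMYCN count to 2 lower. The 7 called in siHAND2 as deposited were HNRNPF, HNRNPC, HNRNPA2B1, HNRNPL, HNRNPDL, HNRNPAB and HNRNPR, with changes from −0.33 to −0.53.

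HNRNPF, an RNA-binding protein of G-rich tracts, had 180.5, 178 and 185 CPM in siCtrl, 154, 154 and 145 after siMYCN, 129, 126 and 121 after siHAND2 and 109, 84.5 and 64.0 after both. All groups were ordered without overlap, and the combined change was −1.10 (SE 0.14, limma adjusted p 1.0e-07, −0.74 rescaled). HNRNPM (chromosome 19, 8509712 to 8554002, hg19) had 193, 203 and 178 CPM in siCtrl, 156, 160.5 and 149 after siMYCN, 175, 149 and 139 after siHAND2 and 107, 91.2 and 68.5 after both. Its combined change was −1.12 (limma adjusted p 6.4e-08, −0.76 rescaled), while both single changes, −0.30 and −0.31, missed the threshold as deposited. HNRNPA2B1, HNRNPAB and HNRNPL changed by −1.07, −1.04 and −1.03 in the combined knockdown (−0.71, −0.68 and −0.67 rescaled).

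HNRNPD (chromosome 4, 83274467 to 83295149, hg19), also known as AUF1, had the largest combined change of the family and widely scattered samples. It had 100.1, 91.2 and 60.2 CPM in siCtrl, 65.5, 51.7 and 50.3 after siMYCN, 104, 58.4 and 45.0 after siHAND2 and 23.2, 44.05 and 26.9 after both. Only the combined knockdown was wholly below siCtrl, with a change of −1.41 (SE 0.23, limma adjusted p 5.8e-06) and −1.06 rescaled (limma adjusted p 0.0035). The siMYCN change of −0.56 was not called as deposited (limma adjusted p 0.061) or rescaled (limma adjusted p 0.12), and with the block it was called (limma adjusted p 0.0047). HNRNPA3 was scattered in the same way, with siCtrl samples of 221, 210 and 159 CPM, and changed by −0.83 in the combined knockdown (−0.48 rescaled).

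HNRNPA1, a shuttling protein that antagonises several SR proteins, had the highest level of the family per transcript length. Per kilobase of canonical transcript the siCtrl level was 334 CPM for HNRNPA1, 213 CPM for HNRNPC and 208 CPM for HNRNPK, and over all members only SNRPD2 was higher, at 384 CPM. Its CPM was 1185, 1277 and 1291 in siCtrl, 1031, 1111 and 1066 after siMYCN, 1059.8, 1205 and 1151 after siHAND2 and 970.1, 663 and 539 after both. The siHAND2 samples overlapped siCtrl, those of the other knockdowns lay below, and the combined samples spread widely. The change in the combined knockdown was −0.83 (SE 0.15, limma adjusted p 2.3e-05, −0.47 rescaled), and the listed pseudogene HNRNPA1P10 overlaps it, with 67.4 to 180 CPM, so reads could be split between them. HNRNPU, HNRNPC and HNRNPK fell in the combined knockdown, with changes of −0.89, −0.81 and −0.67 (−0.53, −0.45 and −0.31 rescaled). HNRNPR, HNRNPH1, HNRNPDL and HNRNPH3 changed by −0.84, −0.76, −0.74 and −0.65 there (−0.48, −0.40, −0.38 and −0.29 rescaled), and HNRNPUL1 by −0.62 (−0.26 rescaled). RMI1 overlaps HNRNPK on the other strand.

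As deposited, 3 of the tested HNRNP genes, HNRNPA0, HNRNPLL and HNRNPH2, had no call in the combined knockdown. HNRNPA0 overlapped siCtrl in every knockdown, with changes of 0.27, 0.03 and −0.26. HNRNPH2 (chromosome X, 100663121 to 100669128, hg19), a paralog of HNRNPH1, had 58.9, 66.6 and 64.1 CPM in siCtrl, 68.9, 80.3 and 75.5 after siMYCN, 57.2, 66.2 and 57.7 after siHAND2 and 84.6, 62.7 and 44.01 after both. The siMYCN samples were all above siCtrl while the combined samples spread to both sides, and the combined change of −0.03 became 0.32 rescaled (limma adjusted p 0.014). The readthrough RPL36A-HNRNPH2 shares its strand. HNRNPLL had 55.7, 53.1 and 58.2 CPM in siCtrl, 60.7, 66.7 and 65.7 after siMYCN, 50.1, 53.1 and 49.3 after siHAND2 and 54.2, 46.9 and 39.4 after both. It was higher in siMYCN than in siHAND2 (0.33, limma adjusted p 0.028, 0.19 rescaled), and higher in siMYCN than in siCtrl after rescaling (0.21, limma adjusted p 0.0072, against limma adjusted p 0.18 as deposited). HNRNPA1L2 and the noncoding readthrough HNRNPUL2-BSCL2 changed by −0.32 and −0.35 in the combined knockdown as deposited and stood at 0.01 and −0.01 rescaled.

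Ratios of chosen HNRNP paralogs within a sample also shifted. HNRNPH2 to HNRNPH1 went from 0.147 ± 0.0037 in siCtrl to 0.190 ± 0.0058 after siMYCN, 0.170 ± 0.0082 after siHAND2 and 0.243 ± 0.033 after both. HNRNPLL to HNRNPL went from 0.204 ± 0.0062 to 0.260 ± 0.015, 0.249 ± 0.0073 and 0.350 ± 0.033. For both pairs every sample of each knockdown lay above every siCtrl sample (two-sided exact permutation p = 0.1, the smallest possible). The ratio of the pseudogene HNRNPA1P10 to HNRNPA1 overlapped siCtrl in all 3 knockdowns. It was 0.126 in siCtrl, 0.0891 after siMYCN, 0.108 after siHAND2 and 0.101 after both (two-sided exact permutation p = 0.2, 0.4 and 0.4). SRSF5 to SRSF6 was 0.187 in siCtrl, overlapped it at 0.183 in siMYCN and 0.231 in siHAND2 (two-sided exact permutation p = 0.8 and 0.2), and was 0.258 in the combined knockdown with no overlap. Outside the families, PTBP1 and PTBP2 are polypyrimidine tract proteins known to switch from the former to the latter as neurons mature. The ratio of PTBP2 to PTBP1 was 0.361 in siCtrl, 0.492 after siMYCN, 0.582 after siHAND2 and 1.11 after both, again with no overlap with siCtrl.

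**Figure D3:**
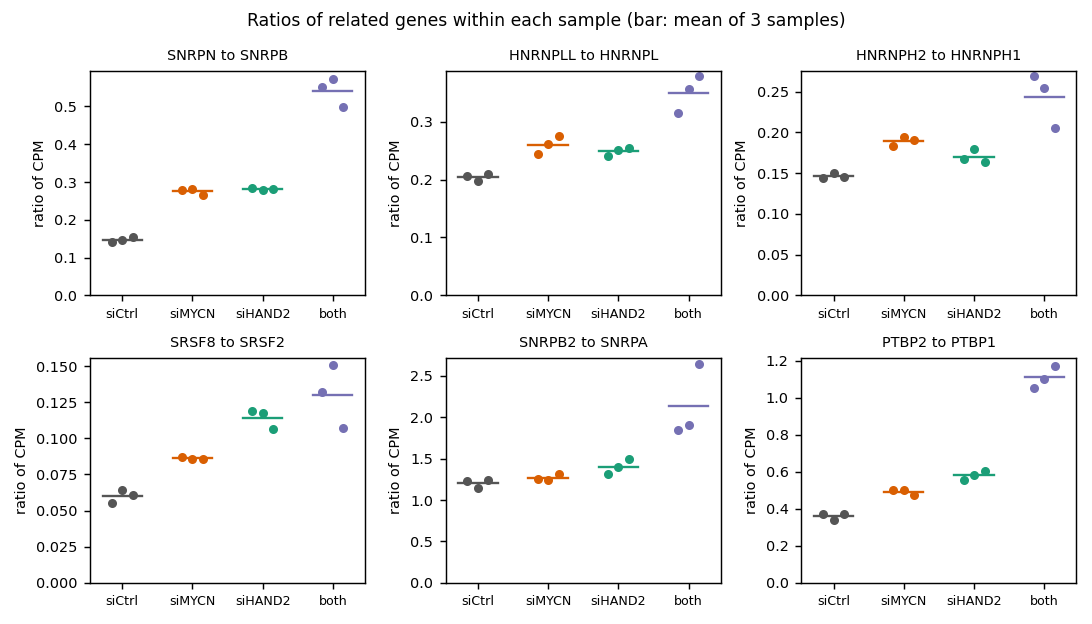
Ratio of the CPM of 2 related genes within each of the 12 samples, with bars for group means and axes that start at 0. For SNRPN to SNRPB the siCtrl samples sit between 0.141 and 0.154 and the combined knockdown (both) between 0.498 and 0.573, and in SNRPB2 to SNRPA replicate 3 of the combined knockdown stands above the rest at 2.64.

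Set against each single knockdown, the combined knockdown had 48 members lower and 0 higher than siMYCN (beside 58.9% of all genes called, 50% lower and 8.92% higher) and 41 lower and 0 higher than siHAND2 (40.3%, 31.5% and 8.75%). Rescaled, 32 were lower and 3 higher than siMYCN (56.7% of all genes called, 26.6% lower and 30% higher), and 33 lower and 1 higher than siHAND2 (49.7%, 23.6% and 26.1%). SNRPN was the 1 gene higher than in siHAND2, by 0.37, and was higher than in siMYCN by 0.48, together with SRSF5 (0.37) and SRSF11 (0.22). SRSF9 had the largest fall against siMYCN, from 103, 103 and 97.5 CPM to 67.3, 51.0 and 41.6 (−0.94, limma adjusted p 1.4e-06, −0.59 rescaled). GATC overlaps SRSF9 on the other strand, so its level is uncertain. HNRNPD had the largest fall against siHAND2 (−1.08, limma adjusted p 5.1e-04, −0.89 rescaled). These contrasts do not hold the shared target at 1 level. MYCN was lower in the combined knockdown than in siMYCN (−0.51, limma adjusted p 7.0e-04), and less so rescaled (−0.16, limma adjusted p 0.054). HAND2 stood 0.23 above siHAND2 (limma adjusted p 0.13), and 0.43 rescaled (limma adjusted p 0.0016). The part of these differences in the counts was not tested.

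The interaction asks whether the combined change departs from the sum of the single changes on the log2 scale. It takes no account of the lower deposited MYCN level in the combined knockdown than in siMYCN. It was called for 1 of the 55 members, HNRNPUL2, beside 4.01% of all genes (3.65% negative and 0.355% positive). Family medians of the interaction were −0.15 for SRSF, −0.43 for HNRNP, −0.12 for SNRP, −0.29 for SF3A and −0.25 for SF3B genes, next to −0.18 over all genes. Rescaled, they were 0.04, −0.24, 0.07, −0.10 and −0.06, next to −0.0091, and 4 members were called: HNRNPUL2, HNRNPUL1 and HNRNPAB negative and SRSF11 positive (beside 6.14% of all genes, 4.47% negative and 1.67% positive). The HNRNP values as deposited ran from −0.71 to −0.10, so none of the 22 was above 0. The median of all genes was itself below 0 on that scale, and the share of all genes below 0 is not given here. Rescaled, the HNRNP values ran from −0.53 to 0.09, and differences between families were not tested. Without replicate 1 of the combined knockdown 30 members were called as deposited and 13 rescaled. The share of all genes called without that sample is not given here, so these counts cannot be set against it.

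HNRNPUL2, a nuclear protein related to HNRNPU, had 28.2, 31.3 and 26.6 CPM in siCtrl, 30.5, 31.6 and 33.5 after siMYCN, 36.6, 29.6 and 27.7 after siHAND2 and 21.98, 24.0 and 16.7 after both. As deposited, both single knockdowns overlapped siCtrl and had means above it (changes of 0.15 and 0.11, limma adjusted p 0.40 and 0.50). The combined knockdown then lay wholly below every other group (−0.45, limma adjusted p 0.0034). Rescaled, the siHAND2 samples all lay above siCtrl, at 121% of its mean, and the combined samples overlapped siCtrl, at 93.0%. The interaction was −0.71 (SE 0.18, limma adjusted p 0.024) and −0.53 rescaled (limma adjusted p 0.036). The call was lost without a filter on low values (limma adjusted p 0.12) and on leaving out any of 5 samples (replicates 1 or 3 of siCtrl, 2 or 3 of siMYCN, or 1 of siHAND2). The readthrough HNRNPUL2-BSCL2, which shares its strand and start, had an interaction of −0.21 that was not called. For HNRNPUL1 and HNRNPAB the rescaled interactions were −0.41 and −0.35 (limma adjusted p 0.041 and 0.021), and as deposited −0.60 and −0.54 (limma adjusted p 0.080 and 0.096). PHYKPL overlaps HNRNPAB on the other strand, so the level of HNRNPAB is uncertain.

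**Figure D4:**
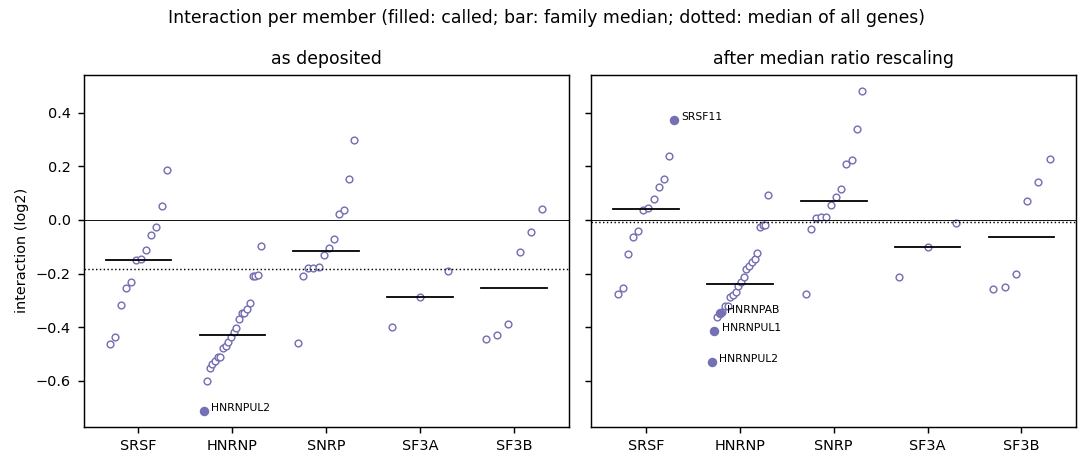
Interaction on the log2 scale of each tested gene by family, as deposited (left) and rescaled (right), with filled points for called genes, bars for family medians and a dotted line for the median of all genes (−0.18 and −0.0091). The HNRNP genes lie wholly below 0 on the left, where the median of all genes is also below 0, with HNRNPUL2 lowest at −0.71. On the right they reach 0.09.

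**Figure D5:**
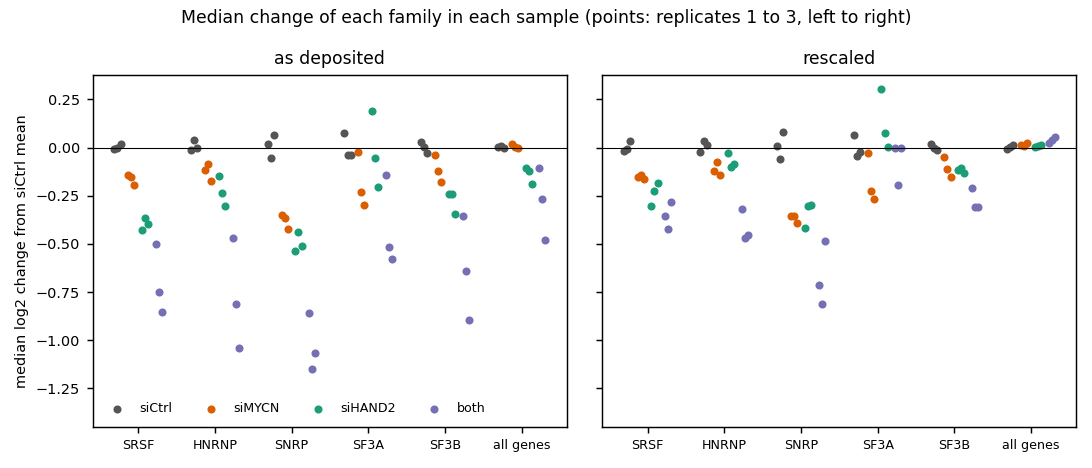
Median log2 change of each family from the siCtrl mean in each of the 12 samples, next to that of all tested genes, as deposited (left) and rescaled (right), with replicates 1 to 3 from left to right. The 3 combined knockdown samples (both) spread from −0.47 to −1.04 for HNRNP genes as deposited and from −0.32 to −0.47 rescaled, and SNRP genes have the lowest family median in each knockdown sample.

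The spread between the combined knockdown samples moved with the share of reads in listed genes, and its part in the deposited changes was not tested beyond the rescaling. As deposited, HNRNP medians were −0.47, −0.81 and −1.04 in replicates 1, 2 and 3, and those of all tested genes were −0.11, −0.27 and −0.48. After rescaling the HNRNP medians were −0.32, −0.47 and −0.45 and those of SNRP genes −0.71, −0.81 and −0.49. All of them lay below the family medians of every siCtrl sample.

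Other genes of splicing were taken from 8 lists with 136 genes, of which 133 were tested. In the combined knockdown 89 were lower and 15 higher (75 and 29 rescaled), with a median of −0.56 (−0.22 rescaled), where 50.1% of all genes were lower and 17.4% higher (33% and 37.7% rescaled). In siMYCN 27 were lower and 13 higher (49 and 14 rescaled), where 16.3% and 17.4% of all genes were (22.5% and 25.4% rescaled). In siHAND2 57 were lower and 11 higher (53 and 23 rescaled), where 30.4% and 12.3% of all genes were (24.9% and 25.9% rescaled). Assembly factors of snRNPs fell in 14 of 16 (12 rescaled), led by WDR77, which presents Sm proteins to the methyltransferase PRMT5 (75.8 ± 0.28 to 26.2 ± 6.44 CPM, SD, n = 3, −1.53). Particle-specific proteins with SNRNP symbols and their partners fell in 17 of 18 (16 rescaled), led by the cyclophilin PPIH (−1.20), and LSM ring proteins in 10 of 13 (9 rescaled), led by LSM4 (−1.25). All 10 genes of 3′ splice site recognition fell on both scales, led by U2AF1 (−1.07). Of the PRP19 complex and the catalytic steps 15 of 20 fell, led by DDX23 (−1.11), with a median of −0.51 (11 and −0.17 rescaled). Of the exon junction complex 8 of 12 fell, led by MAGOH (−1.49), with a median of −0.45 (5 and −0.10 rescaled). None of the genes in those 6 lists was called higher as deposited, and 5 were after rescaling.

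Of 16 SR-related proteins and kinases 9 were lower and 1 higher, with a median of −0.44 (7, 5 and −0.08 rescaled), where 50.1% and 17.4% of all genes were lower and higher (33% and 37.7% rescaled). The kinase SRPK1, which phosphorylates SR proteins in the cytoplasm, changed by −1.15, and CLK1, which does so in the nucleus, rose from 31.0 ± 3.17 to 42.7 ± 4.84 CPM (0.45, limma adjusted p 0.0060, 0.80 rescaled). Tissue-restricted regulators went the other way, with 14 of 28 higher and 6 lower, and a median of 0.34 (19, 5 and 0.69 rescaled). CELF4, a neuronal RNA-binding protein, had 2.46 ± 0.25 CPM in siCtrl, 5.93 ± 0.23 after siMYCN, 9.22 ± 0.99 after siHAND2 and 17.0 ± 2.05 after both, a rise of 2.38 (limma adjusted p 5.8e-15). QKI, a regulator best known from glia, fell from 88.2 ± 8.20 to 23.3 ± 2.04 CPM (−1.88, limma adjusted p 4.8e-13). KHDRBS2, ESRP1 and ESRP2 were below the filter and not tested.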

How the data were processed

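RNA from 12 IMR32 samples (4 groups of 3) was sequenced, and each sample was placed in its group and given its replicate number by its title. Per the submitters' processing notes, STAR 2.5.1, Partek and the genome build hg19 (GRCh37) were used. The counting tool, its use of strand and the annotation are not given in the sources used here. Levels of members that a gene on the other strand overlaps are therefore uncertain. Besides those named as such above, these are SF3A1 (CCDC157), SRSF5 (LOC100289511), HNRNPH3 (PBLD and RUFY2) and HNRNPUL2-BSCL2 (GNG3). The authors deposited CPM, to which a constant of 0.0001 had been added. Of values below 20 reads, 90.4 to 91.9% came out whole within 0.1 read, and of those from 20 to 200 reads 82.5 to 84.1%, so they were not treated as counts. At these depths 3 reads are 0.0468 to 0.0949 CPM, which covers counting error only. Gene ends are given 1 base before the table's stop, which then matched GENCODE for 10420 of 23648 genes.

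log2(CPM + 1) was fitted for the 12680 genes whose CPM averaged 1 or more over all samples, with the 4 groups in limma 3.58.1 (R 4.3.3, trend eBayes, 8 residual degrees of freedom, two-sided), for 7 contrasts, after tests on simulated data. Fold changes understate low genes. A gene is termed called where its p, adjusted over all tested genes by Benjamini-Hochberg, is under 0.05. Rescaling divided each sample by its median ratio over genes averaging 5 CPM or more. Single ratios were compared by an exact permutation test. No pair of samples was counted as a single library.

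Genes of the 5 families and both targeted genes may be named, and from each other list the called gene with the largest rise and fall in the combined knockdown at a mean CPM of at least 5. PTBP1, PTBP2 and SNURF were chosen after their values were seen. The members and lists were chosen with earlier results of these data known. Deviations of same-numbered samples from their group means correlated over 0.1 in all 3 pairs for siMYCN with siCtrl (0.44, 0.15 and 0.31) and with siHAND2 (0.33, 0.14 and 0.32), and not in all pairs of the other comparisons. The replicate number was therefore taken as a possible pairing of the samples in those 2 comparisons. Counts and p-values are from fits without it unless the block is named. With the block, 18 members in place of 11 were called for siMYCN against siCtrl, and 6 in place of 4 for siMYCN against siHAND2.

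Alternatives were: adding 0.1 in place of 1 before the log, dropping the filter or raising it to 5 CPM, both rescalings (median ratio and sum over listed genes), the replicate block, only the groups compared, eBayes without the trend, a threshold of 0.01 or a minimum log2 change of 1 in either direction, and each sample left out. Rescaling without each combined knockdown sample was added after seeing the data. Promoter windows came from RefSeq (GRCh38.p14), matched by symbol.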

Additional observations from a re-analysis of the deposited data

Results flagged for a closer look

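The interaction of the MYCN and HAND2 knockdowns was called for HNRNPUL2, with a value of −0.71 (SE 0.18, limma adjusted p 0.024), beside 4.01% of all genes. In this fit the effect of the HAND2 siRNA on this gene thus differed with and without the MYCN siRNA. The call was lost without the filter on low values and on leaving out any of 5 samples. The siHAND2 samples had a mean of 31.3 CPM against 28.7 CPM in siCtrl, and the combined knockdown a mean of 20.9 CPM against 31.9 CPM in siMYCN. Rescaled, these means were 31.8 against 26.1 CPM, and 24.3 against 29.2 CPM.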

How the results depend on the processing

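For siMYCN against siCtrl, where 11 members were called, the count was 27 with median ratio rescaling, alone or with the replicate block, 23 scaled to the sum over listed genes, 18 with the replicate block, 36 with only the groups compared, 7 at an adjusted p under 0.01, 0 at an absolute log2 change of at least 1, and 8 to 24 with a sample left out. For siHAND2 against siCtrl (30 called) it was 18 at an adjusted p under 0.01, 0 at an absolute log2 change of at least 1, and 20 to 37 with a sample left out. With only the groups compared, 8 further members were called there and 0 were lost. For the combined knockdown the minimum log2 change of 1 left 15 of 49 against siCtrl, 0 of 48 against siMYCN and 1 of 41 against siHAND2, and leaving out a sample gave 46 to 53, 43 to 53 and 32 to 48. For siMYCN against siHAND2 (4 called) it was 9 rescaled, 12 with the listed sum, 10 with rescaling and the block, 25 with only these groups, 1 at an adjusted p under 0.01, 0 at a log2 change of at least 1, and 1 to 14 with a sample left out. For the interaction (1 called) it was 0 without a filter, at an adjusted p under 0.01 and at a log2 change of at least 1, 4 rescaled, 5 with the listed sum, 5 with the replicate block, 6 with rescaling and the block, and 0 to 30 with a sample left out. Rescaled without replicates 1, 2 and 3 of the combined knockdown, settings added after seeing the data, it was 13, 4 and 2. The cause of these moves was not tested. No share of all genes called is given for the alternative settings other than median ratio rescaling, so their counts have none beside them. The block moved no other count by over 1.5 times, and 8 of the 12 samples correlated best with their own number.

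Among genes called on either scale, directions changed with the scale for 9 values, of which 6 were called lower as deposited. Against siCtrl in the combined knockdown, HNRNPA1L2 (−0.32 and called as deposited) was 0.0134 rescaled, with or without the block, and 0.0044 with the listed sum. Under the same settings SRSF12 (−0.29, called) was 0.0424 and 0.0332, HNRNPH2 (−0.03) 0.32 and 0.31, and SRSF5 (−0.07) 0.28 and 0.27, and of these HNRNPH2 and SRSF5 were called higher when rescaled. With a sample left out HNRNPH2 ranged from −0.26 (without replicate 1 of the combined knockdown) to 0.20 (without replicate 3), at 0.0033 without replicate 2 of siCtrl, and SRSF5 from −0.21 (called lower, limma adjusted p 0.043) to 0.0146 without the same combined samples. Against siMYCN, rescaled values with or without the block were 0.0237 for SF3A1 (−0.32 as deposited), 0.0196 for SNRPE (−0.33), 0.0891 for SF3B6 (−0.26) and 0.0469 for SRSF12 (−0.28), all 4 called lower as deposited, and 0.22 for SRSF11 (−0.12, not called as deposited, called higher rescaled), and with the listed sum SF3B6 was 0.0278 and SRSF11 0.16.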
